A study of Danio rerio with 21 samples.

Results

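The mitochondrial ribosomal protein genes were taken as all genes whose zebrafish symbol starts with mrpl or mrps followed by a digit, and 75 of the 32520 gene IDs in the count tables met this rule. Of these, 49 encode proteins of the large subunit and 26 encode proteins of the small subunit of the mitochondrial ribosome. The mrps prefix is no sure guide to the subunit, since mrps30 and mrps18a were placed in the large subunit on the basis of the mammalian mitochondrial ribosome. Each subunit was further divided into proteins with a bacterial counterpart (29 large and 17 small) and proteins that are specific to mitochondria (20 large and 9 small). The division is not sure for every gene. Of the paralogs of bacterial S18, mrps18b and mrps18c were counted with the first class and mrps18a with the second. All 75 genes passed the filter on low counts, and 58 of them averaged 10 CPM or more over the 21 libraries. CPM is the count of a gene relative to the total of its library after TMM scaling, which sets libraries on a common level from the genes they share. It is not corrected for gene length, so levels are compared between genotypes and not between genes.

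The libraries came from livers that were dissected and dissociated from zebrafish larvae at 7 days post fertilization (dpf), with 3 libraries for each of 7 genotypes. The genotypes were xbp1-/-;sec31anju221, srebf1-/-;sec31anju221, srebf2-/-;sec31anju221, atf6-/-;sec31anju221 and atf4a-/-;atf4b-/-;sec31anju221, each set against sec31anju221 alone, and sec31anju221 set against WT. They are called the xbp1, srebf1, srebf2 and atf6 double mutants and the libraries labelled atf4a/b. The sec31anju221 allele, carried by every genotype except WT, is a gene trap insertion that reduces the function of sec31a without abolishing it, in 1 fish line. The other mutations are CRISPR/Cas9 knockouts made by the study. The number of livers or larvae in a library was not given in the sources used here.

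Mitochondria carry their own ribosome, which translates a small set of hydrophobic proteins of the respiratory chain and the ATP synthase from mitochondrial mRNAs. In animals every protein of this ribosome is encoded in the nucleus, made in the cytosol and imported, and joins ribosomal RNA that is transcribed from mitochondrial DNA. Hepatocytes are rich in mitochondria and depend on them for fatty acid oxidation. Sec31a is a subunit of the outer coat of COPII vesicles, which carry cargo from the endoplasmic reticulum to the Golgi. The products of xbp1, atf6 and atf4 are transcription factors of the unfolded protein response, and srebf1 and srebf2 encode regulators of fatty acid and sterol synthesis. The comparisons with the double mutants ask which of these factors the state of the sec31anju221 liver depends on.

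The libraries held totals of 9608400 to 23095746 counts. Whether a count is a read or a read pair was not given in the sources used here. The spread between the 3 libraries of a genotype was small, with a median variance of 1.77 to 1.88 times the mean for genes of 100 to 2000 counts. Sampling alone gives about 1 times the mean if a count is a read pair, and up to 2 times if both reads of a pair are counted. Each genotype was therefore taken as 1 sample, no difference has a replicate check, no p-value is given, and a gene is called higher or lower only by a fold change above 2 (a log2 difference beyond 1 in size). For the members, the median coefficient of variation between the 3 libraries was 4.28% to 9.14%, which covers the error of sequencing and not that between larvae. All 5 comparisons of double mutants share the same sec31anju221 libraries, which are also those set against WT. Genes with at least 1 CPM before scaling numbered 21674 to 23458 in the libraries of xbp1-/-;sec31anju221, atf6-/-;sec31anju221 and atf4a-/-;atf4b-/-;sec31anju221, against 11627 to 15433 in those of the other 4 genotypes. The scaling factors follow this division, at 1.563 to 2.084 in the first 3 genotypes and 0.4824 to 0.7664 in the others, so a direction can depend on the scaling. Most gene groups are therefore also given relative to other groups or under other scalings. A change of scaling moves all genes of a comparison by nearly the same log2 amount, less so at low counts. The distance between gene groups therefore stays nearly the same by construction, and its stability is not a check on it. Values printed without these are those of TMM scaling. Counts of sec31a averaged 2.03 to 4.94 CPM in the 6 mutant genotypes and 19.5 CPM in WT. The gene targeted in each xbp1, atf6, srebf1 and srebf2 double mutant was lower there than in sec31anju221 (xbp1 at 0.386 CPM against 104 CPM, atf6 at 4.40 CPM against 327 CPM, srebf2 at 1.0 CPM against 4.44 CPM and srebf1 at 0.455 CPM against 1.57 CPM). The level of srebf1 was as low in the srebf2 double mutant, at 0.406 CPM, and does not single out the srebf1 libraries. In contrast, atf4a averaged 12.6 CPM and atf4b 132 CPM in the libraries labelled atf4a-/-;atf4b-/-;sec31anju221, against 6.39 and 88.2 CPM in sec31anju221. The atf4a and atf4b alleles of the study are large deletions, so this level goes against the label. Every direction given for these libraries rests on a label that the counts do not bear out. With TMM scaling, atf4a and atf4b had their lowest means in the atf6 double mutant, at 0.85 and 25.1 CPM. The level of atf6 was also lower in the xbp1 double mutant than in sec31anju221, at 38.4 CPM.

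**Figure D1:**
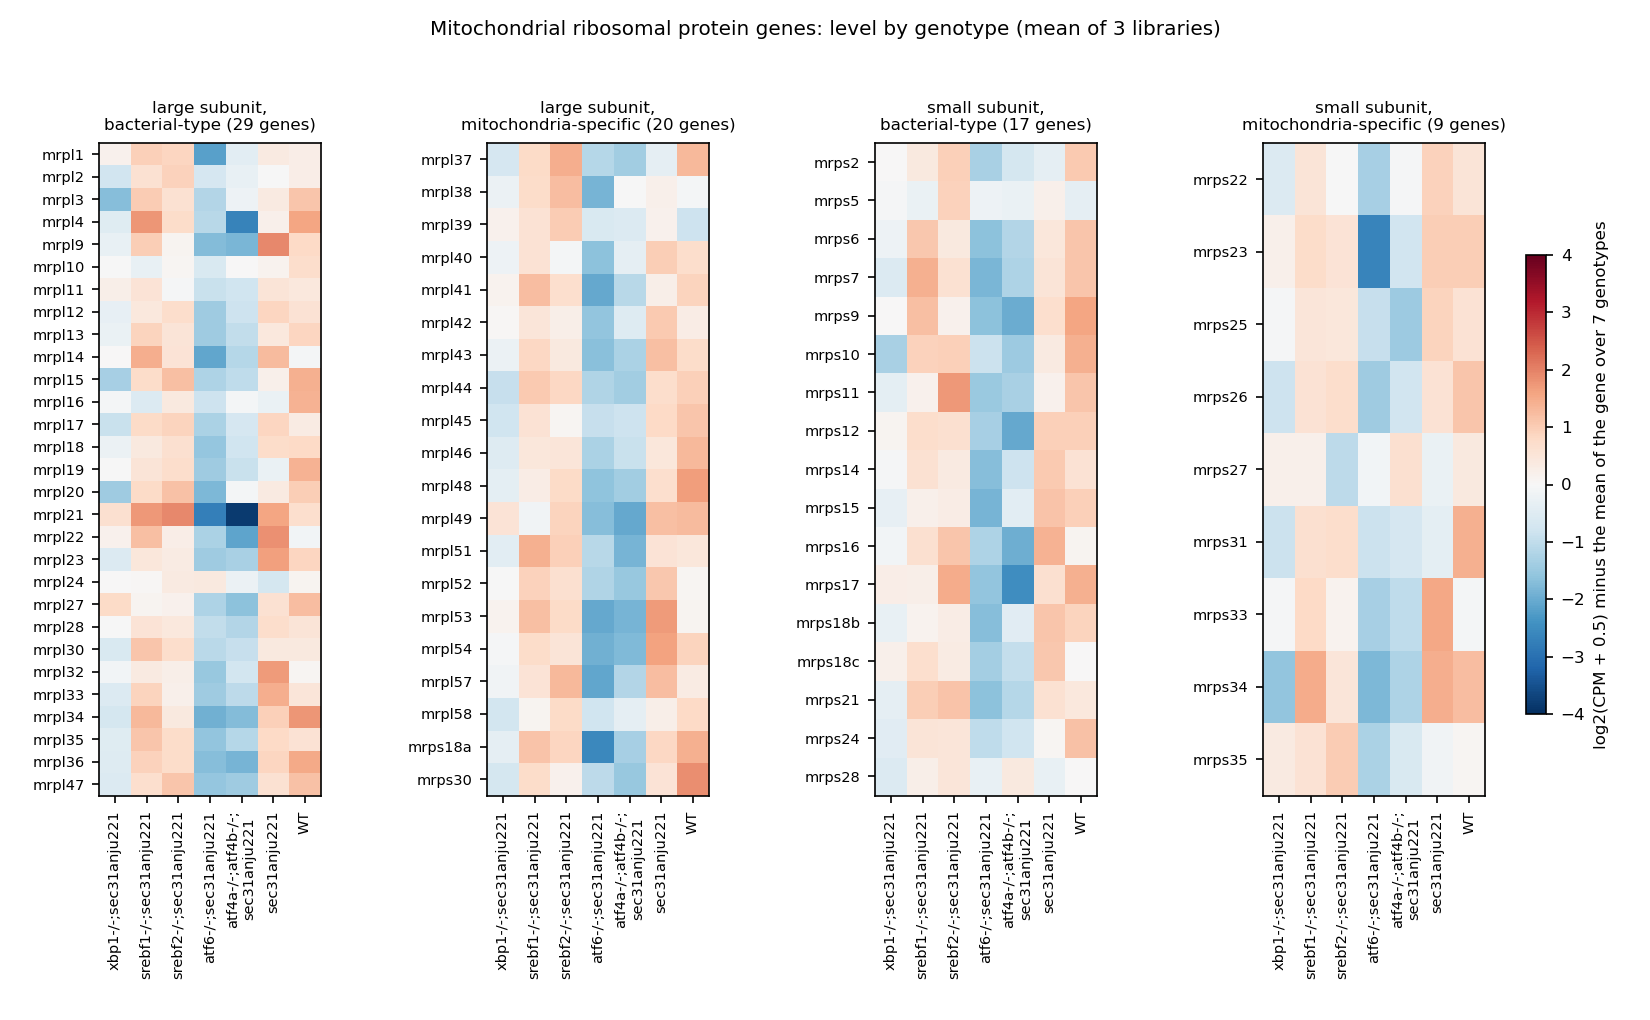
Level of the 75 mitochondrial ribosomal protein genes in the 7 genotypes. Each cell is the log2 of the genotype mean (CPM + 0.5, mean of 3 libraries) minus the mean of that gene over the genotypes, with red above and blue below, and genes are grouped by subunit and by whether the protein has a bacterial counterpart. With these TMM factors, 48 genes are lowest in atf6-/-;sec31anju221 and 19 in atf4a-/-;atf4b-/-;sec31anju221.

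Across the 7 genotypes, the members were highest in WT (24 genes), sec31anju221 (23), srebf2-/-;sec31anju221 (14) or srebf1-/-;sec31anju221 (12), and 1 each was highest in the atf6 double mutant and atf4a-/-;atf4b-/-;sec31anju221. The lowest level was in the atf6 double mutant for 48 genes, in the libraries labelled atf4a/b for 19 and in the xbp1 double mutant for 4. In this order, 67.3%, 57.8% and 59.7% of genes averaging 10 CPM or more were over 2-fold lower there than in sec31anju221. The ranks use TMM scaling and were not drawn up under other scalings. As a share of all counts the members took 0.535% to 0.540% in the xbp1 double mutant and 0.480% to 0.486% in sec31anju221. The share was 0.213% to 0.218% in the atf6 double mutant and 0.203% to 0.208% in the libraries labelled atf4a/b. The highest genotype mean of a member was 7.65 times its lowest at the median. The widest range belonged to mrpl21 (81.3-fold) and mrpl4 (35.7-fold), and the narrowest to mrps28 (2.52-fold) and mrpl10 (2.53-fold).

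The first comparison asks how the reduction of Sec31a alone bears on these genes. In sec31anju221 livers, the members were spread to both sides of the WT level without a shared direction. More than 2-fold higher were 9 members and more than 2-fold lower were 11, among 30747 genes tested of which 13.9% were higher and 10.3% lower (15.7% and 18.2% of the 5198 genes that averaged 10 CPM or more, called expressed genes). The median log2 fold change of the members was -0.05, with the middle 50% of genes between -0.74 and 0.48, against -0.11 for the expressed genes. The sign of this median turned with the scaling, to 0.06 with TMM factors taken from the expressed genes (13 members higher and 8 lower, with 13.7% and 8.27% of all genes tested) and 0.60 with library totals (21 higher and 4 lower, with 28.7% and 3.79% of all genes tested). Relative to the median of the expressed genes the members stood at 0.06 under each scaling. Hepatocyte markers were lower in sec31anju221, 12 of 14 beyond 2-fold and none at 0, at a summed 182832 to 187387 CPM against 650837 to 665205 CPM in WT. Exocrine pancreas markers were lower in 7 of 10, at a summed 105 to 107 CPM in sec31anju221 and 1972 to 1989 CPM in WT. The part of cell composition in the values of the members was not tested.

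The genes that were higher in sec31anju221 included a large subunit gene for a part of the tunnel through which the new peptide leaves. The largest difference was that of mrpl22 (ENSDARG00000109961), whose bacterial counterpart lines that tunnel, with 72.1, 68.9 and 68.6 CPM in the sec31anju221 libraries against 21.6, 18.1 and 15 CPM in the WT libraries (log2 fold change 1.93). All sec31anju221 libraries lay above all WT libraries. The neighbouring tunnel gene mrpl23 had the higher values in sec31anju221 too, at 615, 598 and 607 CPM against 349, 359 and 356 CPM in WT, a log2 fold change of 0.77 that did not reach 2-fold. By contrast mrpl4, whose counterpart forms the tunnel wall, was lower, with 9.45, 7.6 and 7.66 CPM in sec31anju221 and 25.1, 18.7 and 23.2 CPM in WT (log2 fold change -1.43). Genes of 1 structural neighbourhood thus stood on both sides of the WT level.

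Of the remaining large subunit genes, mrpl32 (ENSDARG00000060489) was among those higher in sec31anju221. Its product is known in yeast and mouse to be cut by the m-AAA protease of the inner membrane before it joins the ribosome. The gene had 645, 645 and 649 CPM in sec31anju221 libraries against 205, 216 and 206 CPM in WT libraries (log2 fold change 1.63). A subunit of that protease, afg3l2, averaged 38.2 CPM in sec31anju221 and 30.4 CPM in WT (log2 fold change 0.33). The mitochondria-specific mrpl53 (ENSDARG00000008920) was the member with the highest mean CPM and had 754, 772 and 797 CPM in sec31anju221 against 253, 263 and 263 CPM in WT (log2 fold change 1.58). More than 2-fold lower was mrpl19, at the interface with the small subunit in bacteria, with 14.6, 14.7 and 15 CPM in sec31anju221 against 47, 49 and 44.9 CPM in WT (log2 fold change -1.66). The same held for mrps30, a mitochondria-specific protein of the large subunit despite its name, at 219, 230 and 232 CPM in sec31anju221 and 565, 583 and 535 CPM in WT (log2 fold change -1.30). Among the 12 members that averaged 100 CPM or more it was the only one below the WT level with TMM factors from all genes tested.

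In the small subunit, a pair of mitochondria-specific genes stood on opposite sides of WT. The first, mrps33, had 115, 115 and 110 CPM in sec31anju221 against 37.1, 40.3 and 33.8 CPM in WT (log2 fold change 1.61). The second, mrps31 (ENSDARG00000057855), had 16.3, 17.7 and 16.7 CPM in sec31anju221 against 58.8, 62.7 and 58.4 CPM in WT (log2 fold change -1.82), the lowest value of any member in this comparison. The sec31anju221 and WT libraries overlapped for 15 members and were separated for the others, mrps33 and mrps31 among them. The share of all genes tested that were separated was not computed, so separation does not single out a gene or the members. No such difference was seen for mrps12, the counterpart of the bacterial decoding-centre protein, with 210, 206 and 215 CPM in sec31anju221 and 217, 205 and 208 CPM in WT. For mrps24, whose bacterial counterpart lines the mRNA entry channel, the values were 18.9, 22.4 and 22.4 CPM in sec31anju221 and 46.5, 45.6 and 44.9 CPM in WT (log2 fold change -1.1).

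**Figure D2:**
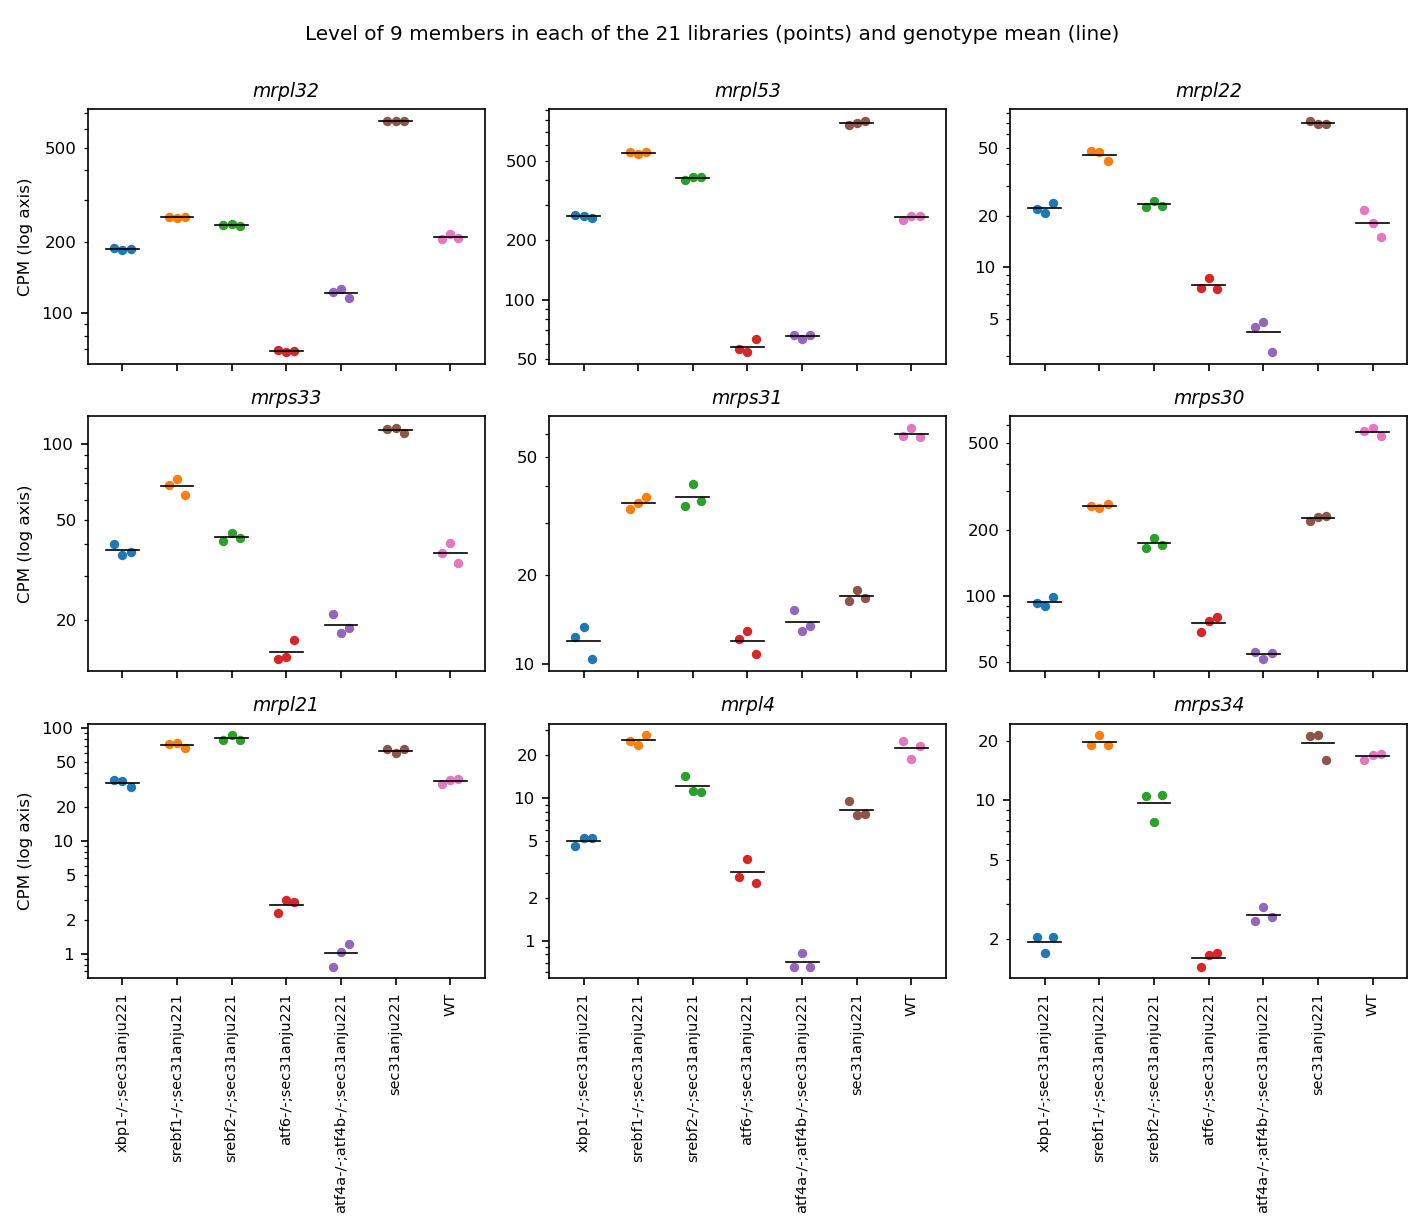
CPM (log axis) of 9 mitochondrial ribosomal protein genes in each of the 21 libraries, with points for libraries and a line for the genotype mean. The 3 libraries of a genotype lie close together; mrpl32, mrpl53, mrpl22 and mrps33 are highest in sec31anju221, mrps31 and mrps30 in WT, and mrpl21 and mrpl4 are lowest in the libraries labelled atf4a-/-;atf4b-/-;sec31anju221.

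The values in sec31anju221 differed with the mean CPM of the gene. This division by mean level over the 21 libraries was chosen after the values had been seen and describes these libraries only. In every comparison the mean includes the libraries compared, so a gene's own difference can move it between ranges. Of the 12 members with a mean of 100 to 1000 CPM, 11 were above the WT level and the median log2 fold change of the 12 was 0.76, while the 881 other genes of that level had a median of -0.27. Among the 11 was mrps12, at 0.0036 with overlapping libraries and at -0.07 with DESeq2 size factors. The 29 members of 10 to 30 CPM had a median of -0.55, and the 2606 other genes of that level stood at -0.06. The 17 members between these levels were at 0.09. Relative to other genes of their level the 3 groups stood at 1.02, -0.49 and 0.16 in this order. The summed level of all 75 members was 6305 to 6369 CPM in the sec31anju221 libraries against 4907 to 4968 CPM in the WT libraries, although the median member did not differ by 2-fold. Their share of all counts was 0.480% to 0.486% in sec31anju221 and 0.240% in WT. Hepatocyte markers alone took 31.8% to 32.1% of counts in WT and 13.9% to 14.3% in sec31anju221.

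**Figure D3:**
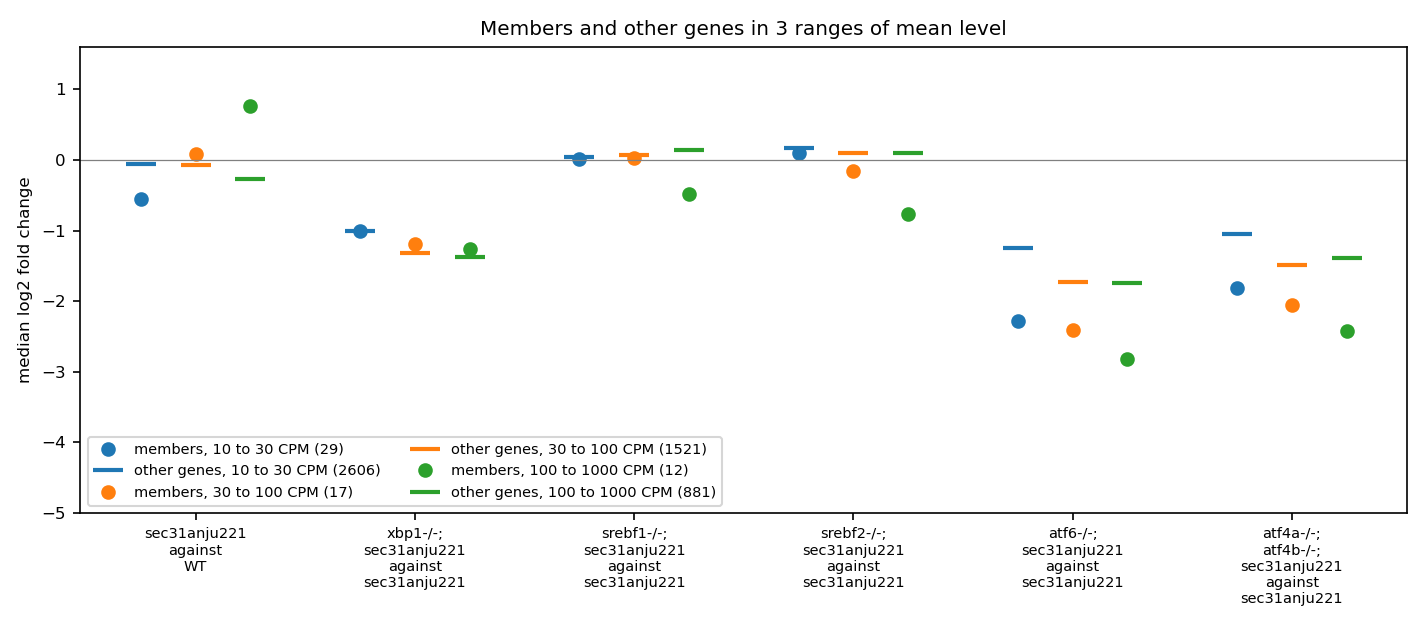
Median log2 fold change of the members (points) and of all other genes (short lines) in 3 ranges of mean level, for the 6 comparisons, with the number of genes in the legend. Members of 100 to 1000 CPM stand above other genes of that level in sec31anju221 against WT; in the comparisons of the atf6 double mutant and the libraries labelled atf4a/b members stand below them in all 3 ranges.

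The genes that work with the mitochondrial ribosome were examined next, again without a test. Ribosomal subunits with other names (dap3, ptcd3, chchd1, aurkaip1 and gadd45gip1) had no gene beyond 2-fold in sec31anju221 against WT, with a median of -0.27. Among 16 mitochondrial translation factors, 2 were higher and 3 lower with a median of 0.05; tufm, the elongation factor that brings aminoacyl-tRNAs to the ribosome, averaged 40.2 CPM in sec31anju221 and 15 CPM in WT (log2 fold change 1.41). The 19 mitochondrial aminoacyl-tRNA synthetases and amidotransferase subunits had a median of 0.58 with 5 higher and 3 lower, led among genes of at least 10 CPM by hars2 at 68 CPM in sec31anju221 and 28.3 CPM in WT, whereas sars2 stood at 29.9 CPM in sec31anju221 and 77 CPM in WT. Of 22 assembly factors 3 were higher and 5 lower (median -0.23), and mterf3, which is needed in mice for assembly of the large subunit, averaged 4.46 CPM in sec31anju221 and 21 CPM in WT (log2 fold change -2.21). The 13 mitochondrially encoded mRNAs, which this ribosome translates, had a median of -0.58 with none higher and 3 lower, mt-co3 being the lowest at 4734 CPM in sec31anju221 and 15653 CPM in WT. Mitochondrial chaperones and proteases (8 genes, 2 higher, 1 lower) had a median of 0.23, and genes of mitochondrial DNA transcription and biogenesis (13 genes, 1 higher, 1 lower) a median of 0.22. All the medians of these lists were positive under library totals, from 0.08 for the mitochondrially encoded mRNAs to 1.11 for the synthetases, so the negative signs depend on the scaling.

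In the xbp1 double mutant the direction of the members as a group depended on the scaling. With TMM factors, 40 members were more than 2-fold lower and 1 higher in the xbp1 double mutant than in sec31anju221, with a median of -1.04, in a comparison where 16.5% of all genes tested were lower and 8.6% higher. Among the expressed genes, 59.7% were lower and 1.21% higher and their median was -1.20, so the members stood 0.15 above it. With TMM factors taken from those genes the median of the members was 0.17 (11 higher and 3 lower, with 57.2% and 3.4% of all genes tested), and with library totals it was 0.37 (16 higher and 2 lower, with 63.8% and 2.54% of all genes tested). Shares of the expressed genes were not computed under these other scalings. Their medians there were 0.04 and 0.24, against 1.18 and 1.38 for all genes tested. No direction of the group of members as a whole can be given for this genotype. Hepatocyte markers were lower in 12 of 14 (summed 59182 to 59711 CPM against 182832 to 187387 CPM in sec31anju221), with a median of -1.43 that also turned with library totals (0.01). Exocrine pancreas markers were lower in 6 of 10 (19.6 to 21 CPM against 105 to 107 CPM), with a median of -1.31 that was 0.07 with library totals.

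Under each of the 4 scalings 22 members had negative values in the xbp1 double mutant and 7 positive ones. The share of other genes that kept their sign in this way was not computed, so these counts do not set the members apart. The small subunit gene mrps34 (ENSDARG00000057910), which is mutated in a human form of Leigh syndrome, had 2.05, 1.7 and 2.05 CPM in the xbp1 double mutant against 21.1, 21.3 and 16 CPM in sec31anju221 (log2 fold change -3.25). It was the largest difference of any member in this comparison. Among members of at least 10 CPM, the next were mrpl9 with 11.7, 13.5 and 11.8 CPM in the xbp1 double mutant against 57, 60.2 and 60.3 CPM in sec31anju221 (log2 fold change -2.25), and mrpl3, whose counterpart reaches towards the peptidyl transferase centre, with 3.26, 3.89 and 3.34 CPM against 14.9, 17.9 and 15.7 CPM (log2 fold change -2.17). The tunnel gene mrpl23 had 138, 133 and 134 CPM in the xbp1 double mutant and 615, 598 and 607 CPM in sec31anju221 (log2 fold change -2.17). On the other side stood mrps35 (log2 fold change 0.50), mrpl19 (0.26) and mrpl27 (0.17), the last a protein close to the site of peptide bond formation in bacteria, with 44.9, 41.4 and 42 CPM in the xbp1 double mutant and 36.6, 37 and 40.6 CPM in sec31anju221. The 1 member above 2-fold was mrpl24, named after its value was seen (log2 fold change 1.01). It had 86 counts summed over the xbp1 double mutant and 27 over sec31anju221. Leaving out library number 1 or number 2 of every genotype left no member above 2-fold.

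The mitochondrially encoded mRNAs stood further down than the ribosomal protein genes in the xbp1 double mutant. All 13 were more than 2-fold lower, with a median of -1.94 (-0.49 with library totals), and the members stood 0.86 to 0.89 above them over the 4 scalings. The mRNA of cytochrome b, mt-cyb, averaged 12199 CPM in the xbp1 double mutant and 49781 CPM in sec31anju221. Among transcription factors of mitochondrial DNA, tfb2m was at 21 CPM in the double mutant and 65.3 CPM in sec31anju221 (log2 fold change -1.63). For tfam the values were 35 CPM in the double mutant and 67.5 CPM in sec31anju221 (log2 fold change -0.94). The list of 13 genes that holds tfb2m and tfam had a median of -0.47. That median was 0.75 with TMM factors from the expressed genes and 0.95 with library totals, so no direction of the list can be given. Members differed little from cytosolic ribosomal protein genes here (0.06 to 0.08 above them over the scalings) and from the nuclear-encoded subunits of oxidative phosphorylation (0.22 to 0.25 below them).

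In the srebf1 and srebf2 double mutants the median of the mitochondrial ribosomal protein genes was near the level of sec31anju221, and that of the cytosolic ribosomal protein genes above it. In srebf1-/-;sec31anju221, 4 members were more than 2-fold higher and 3 lower than in sec31anju221 (11.2% of all genes tested higher and 14.5% lower, and 15.2% and 12.8% of the expressed genes), with a median of 0.02. In srebf2-/-;sec31anju221, 8 were higher and 9 lower (12.1% of all genes tested higher and 25.6% lower, and 23% and 17.2% of the expressed genes), with a median of -0.05. Of the 8, mrpl24, mrpl37, mrpl38 and mrps2 averaged under 10 CPM and are not among the expressed genes. The sign of both medians depended on the scaling, with a range of -0.09 to 0.07 for the srebf1 double mutant and -0.48 to 0.12 for the srebf2 double mutant. The counts of higher and lower members shifted with it, to 2 and 6 in the srebf1 double mutant (8.64% and 14.3% of all genes tested) and to 4 and 16 in the srebf2 double mutant (8.7% and 27.6%) with TMM factors from the expressed genes. In the srebf2 double mutant they were 14 and 6 with DESeq2 size factors (14.3% and 21.1%) and 2 and 21 with library totals (6.72% and 34%).

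The cytosolic ribosome, which makes these proteins among all others, showed another picture in the same libraries. Of its 69 protein genes, 48 were more than 2-fold higher in the srebf1 double mutant (median 1.17) and 64 in the srebf2 double mutant (median 2.02), and none was lower. The members stood 1.16 below them in the srebf1 double mutant and 2.07 below them in the srebf2 double mutant. By construction these distances hardly move with the scaling. Cytosolic ribosomal protein genes took 5.09% to 5.10% of counts in the srebf1 double mutant and 7.06% to 7.10% in the srebf2 double mutant. Their share in sec31anju221 was 2.47% to 2.48%. For the members the shares were 0.347% to 0.351% in the srebf1 double mutant and 0.236% to 0.237% in the srebf2 double mutant, against 0.480% to 0.486% in sec31anju221. Nuclear-encoded subunits of oxidative phosphorylation lay between, with medians of 0.60 in both double mutants. Hepatocyte markers were also higher in both, 7 of 14 beyond 2-fold in each with medians of 0.92 and 1.13, at a summed 271408 to 277515 CPM in the srebf1 double mutant and 319506 to 329200 CPM in the srebf2 double mutant, against 182832 to 187387 CPM in sec31anju221. Exocrine pancreas markers were higher in the srebf1 double mutant, 9 of 10 beyond 2-fold, at a summed 702 to 716 CPM against 105 to 107 CPM in sec31anju221, and in the srebf2 double mutant 4 of 10 were lower and 1 higher, at a summed 40.1 to 40.9 CPM. Intestine markers summed to 6612 to 6738 CPM in the srebf1 double mutant (none of 8 beyond 2-fold) and 2961 to 3033 CPM in the srebf2 double mutant (3 lower), against 8587 to 8651 CPM in sec31anju221. Of 5 leukocyte markers 3 were higher in each (medians 1.66 and 1.67), at a summed 29.6 to 31.8 CPM in the srebf1 double mutant and 19.5 to 21.9 CPM in the srebf2 double mutant against 6.91 to 7.85 CPM in sec31anju221. Of 4 endothelial markers 3 were lower in the srebf1 double mutant (median -1.32), and of 3 biliary markers 2 were higher in the srebf2 double mutant (median 1.24). Their part in these differences was not tested, and in whole livers fewer cells of a type and less RNA per cell cannot be told apart.

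**Figure D4:**
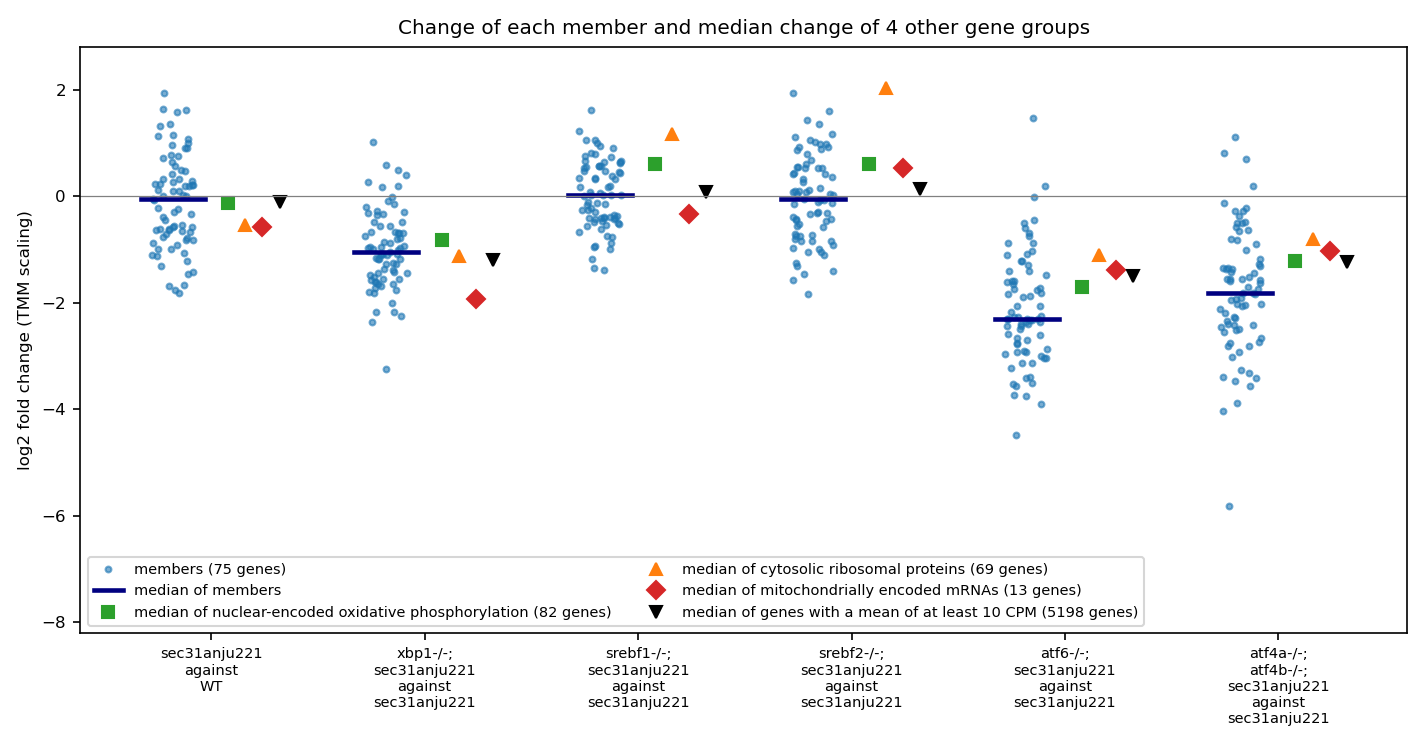
Log2 fold change (TMM scaling) of each of the 75 members (points, line at their median) in the 6 comparisons, with the medians of 4 other gene groups as symbols. The members lie below the cytosolic ribosomal protein genes in srebf1-/-;sec31anju221 and srebf2-/-;sec31anju221 and below all 4 groups in atf6-/-;sec31anju221 and atf4a-/-;atf4b-/-;sec31anju221; the sign of the members' median in the first 4 comparisons depends on the scaling.

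Within this near-zero median, single members differed. In srebf1-/-;sec31anju221 the tunnel wall gene mrpl4 had 25, 23.7 and 27.5 CPM against 9.45, 7.6 and 7.66 CPM in sec31anju221 (log2 fold change 1.61), close to its WT values of 25.1, 18.7 and 23.2 CPM. The small subunit gene mrps31 had 33.5, 35.1 and 36.8 CPM in the srebf1 double mutant, 34.2, 40.4 and 35.5 CPM in the srebf2 double mutant and 16.3, 17.7 and 16.7 CPM in sec31anju221 (log2 fold changes 1.05 and 1.11). Both genes were among those lower in sec31anju221 than in WT. They were named for extreme values in these comparisons, which share the sec31anju221 libraries, so these differences are not independent. A further small subunit gene, mrps11, whose counterpart sits on the platform next to the mRNA exit, was higher in the srebf2 double mutant at 41.2, 39.7 and 39.6 CPM, against 12.3, 13.4 and 13.9 CPM in sec31anju221 (log2 fold change 1.6). In srebf1-/-;sec31anju221 it stood at 13, 14.5 and 12.1 CPM, overlapping sec31anju221. The other members above 2-fold in the srebf1 double mutant were mrpl24 and mrpl37, named after their values were seen, both with means under 10 CPM.

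Some of the members that were lower were those high in sec31anju221 against WT. In srebf1-/-;sec31anju221, mrpl32 had 255, 251 and 255 CPM and in the srebf2 double mutant 236, 237 and 232 CPM, against 645, 645 and 649 CPM in sec31anju221 (log2 fold changes -1.35 and -1.46). The exit tunnel gene mrpl22 had 22.6, 24.4 and 22.9 CPM in the srebf2 double mutant against 72.1, 68.9 and 68.6 CPM in sec31anju221 (log2 fold change -1.58), and mrps33 had 41.4, 44.3 and 42.3 CPM against 115, 115 and 110 CPM (log2 fold change -1.41). In these 3 genes the double mutant values lay closer to WT than to sec31anju221, but the comparisons share the sec31anju221 libraries. The lowest value in the srebf1 double mutant was that of mrpl49, a mitochondria-specific large subunit protein, with 12.3, 13 and 12.9 CPM against 35.5, 33.3 and 31.2 CPM (log2 fold change -1.38). It stood at 25.9, 28.6 and 25.4 CPM in the srebf2 double mutant. By level, the 12 members of 100 to 1000 CPM had medians of -0.48 in the srebf1 double mutant and -0.77 in the srebf2 double mutant, where other genes of that level stood at 0.14 and 0.10.

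In the atf6 double mutant the mitochondrial ribosomal protein genes were lower as a group under all 4 scalings. With TMM factors, 65 of the 75 were more than 2-fold lower than in sec31anju221 and 1 was higher, where 19.3% of all genes tested and 67.3% of the expressed genes were lower, and 12.7% and 1.96% higher. Their median was -2.31, and it was -2.23 with DESeq2 size factors, -0.81 with TMM factors from the expressed genes (27 lower and 5 higher, with 5.03% and 63.8% of all genes tested) and -0.87 with library totals (28 lower and 3 higher, with 5.4% and 62.7% of all genes tested). Shares of the expressed genes were not computed under the last 2 scalings. Their medians there were -0.0045 and -0.069, against 1.44 and 1.40 for all genes tested. Relative to the median of the expressed genes the members stood at -0.80 to -0.81. The median was -2.31 for the large and -2.29 for the small subunit, and -2.32 for mitochondria-specific and -2.29 for bacterial-type proteins. Relative to other genes of their level, the medians of the members were at -1.02, -0.68 and -1.07 for genes of 10 to 30, 30 to 100 and 100 to 1000 CPM.

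The libraries labelled atf4a/b, whose atf4a and atf4b counts go against that label, gave a similar, somewhat smaller distance. Of the 75 members 57 were more than 2-fold lower than in sec31anju221 and 1 was higher, where 18.1% of all genes tested and 57.8% of the expressed genes were lower, and 12.2% and 3.46% higher. The median was -1.82, and it stayed negative at -1.77, -0.55 (26 lower and 6 higher, with 6.52% and 58.7% of all genes tested) and -0.79 (31 lower and 4 higher, with 8.01% and 51.2% of all genes tested) under the same 3 other scalings. The medians of the expressed genes under the last 2 scalings were 0.03 and -0.21, against 1.23 and 1.03 for all genes tested. Shares of the expressed genes were not computed there. Relative to the median of the expressed genes the members stood at -0.58 to -0.59. Large subunit genes had a median of -1.95 and small subunit genes of -1.78. Relative to other genes of their level, the medians were at -0.77, -0.57 and -1.03 in the 3 ranges from low to high.

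**Figure D5:**
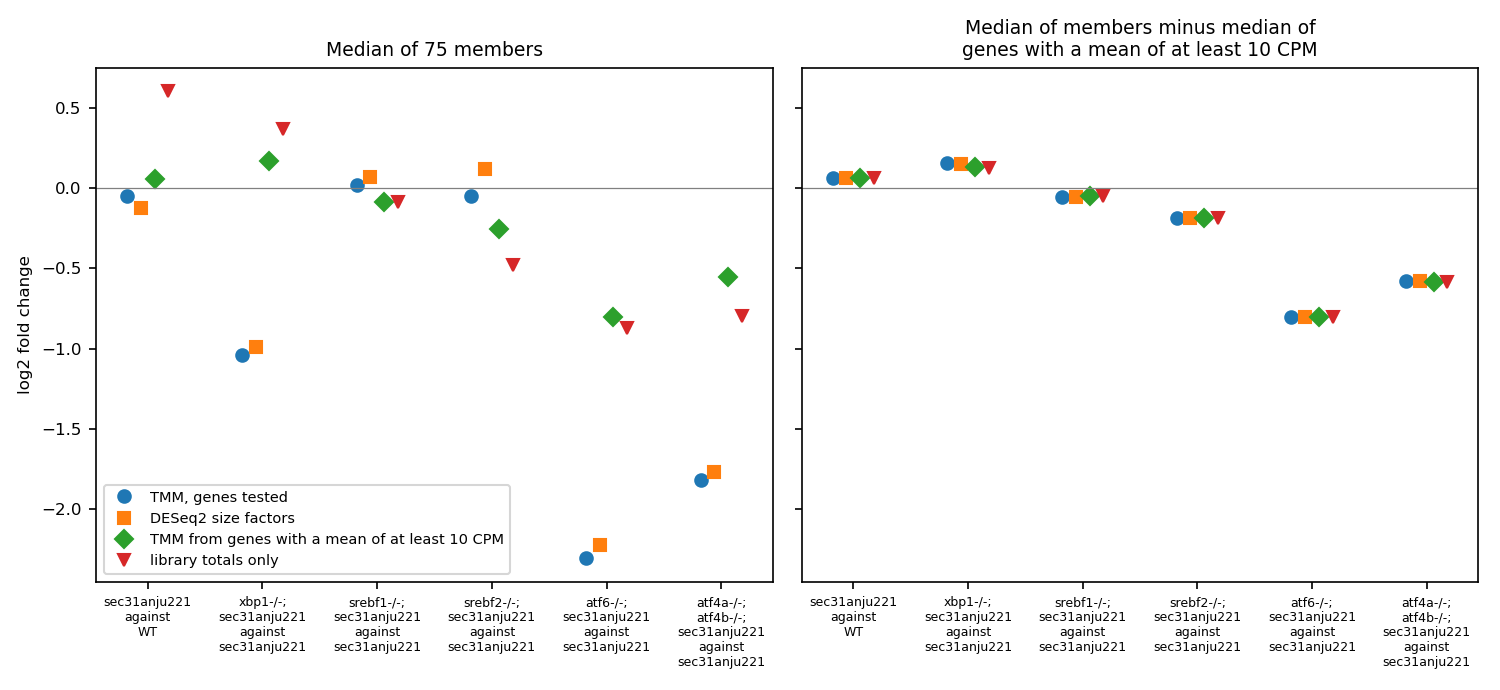
Median log2 fold change of the 75 members in the 6 comparisons under 4 ways of scaling the libraries (left), and the same median minus that of the expressed genes, 10 CPM or more on average (right). The left values turn sign with the scaling except in atf6-/-;sec31anju221 and atf4a-/-;atf4b-/-;sec31anju221 (both negative throughout). The right values are nearly the same under each scaling by construction, as a change of scaling moves both medians nearly alike.

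The lowest log2 fold change in both genotypes was that of mrpl21 (ENSDARG00000003846), a large subunit protein with a bacterial counterpart. It had 2.3, 3.01 and 2.85 CPM in the atf6 double mutant against 64.9, 60.2 and 65.2 CPM in sec31anju221 (log2 fold change -4.48). In the libraries labelled atf4a/b it had 0.766, 1.04 and 1.21 CPM (log2 fold change -5.82). These are 55 counts summed over the 3 libraries, against 2988 in sec31anju221. The remaining genotypes held between 32.9 and 81.7 CPM on average, so the libraries of these 2 genotypes lay below all others.

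Members differed in which of the pair had the lower values. The small subunit gene mrps23 had 2.05, 1.1 and 1.4 CPM in the atf6 double mutant and 6.4, 8.26 and 5.92 CPM in the libraries labelled atf4a/b, against 26.3, 22.7 and 24.8 CPM in sec31anju221 (log2 fold changes -3.91 and -1.82). The tunnel wall gene mrpl4 showed the opposite order, with 2.8, 3.71 and 2.55 CPM in the atf6 double mutant and 0.656, 0.821 and 0.658 CPM in the libraries labelled atf4a/b, against 9.45, 7.6 and 7.66 CPM in sec31anju221 (log2 fold changes -1.41 and -3.32). For mrpl4 in the atf6 double mutant the sign turned with TMM factors from the expressed genes (0.06). The decoding-centre gene mrps12 had 41.1, 44.1 and 42.2 CPM in the atf6 double mutant and 25.6, 24.7 and 26.8 CPM in the libraries labelled atf4a/b, against 210, 206 and 215 CPM in sec31anju221 (log2 fold changes -2.31 and -3.03).

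Others were low in both genotypes. Among them mrpl53 had 56.3, 54.4 and 63.3 CPM in the atf6 double mutant and 66.6, 63 and 66.4 CPM in the libraries labelled atf4a/b, against 754, 772 and 797 CPM in sec31anju221 (log2 fold changes -3.74 and -3.56). These values were also below the 253, 263 and 263 CPM of WT. The values of mrpl9 were likewise below those of WT, at 4.89, 3.21 and 4.65 CPM in the atf6 double mutant and 3.5, 3.78 and 4.44 CPM in the libraries labelled atf4a/b, against 57, 60.2 and 60.3 CPM in sec31anju221 and 27.5, 26.1 and 26.2 CPM in WT. In mrpl22 the values were 7.59, 8.62 and 7.45 CPM in the atf6 double mutant and 4.49, 4.76 and 3.18 CPM in the libraries labelled atf4a/b, against 72.1, 68.9 and 68.6 CPM in sec31anju221.

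Closest to the sec31anju221 level among members of at least 10 CPM, with TMM factors from all genes tested, were mrps31 and mrpl10, and the sign of both turned with the scaling. For mrps31 the values were 12.1, 12.9 and 10.8 CPM in the atf6 double mutant and 15.2, 12.9 and 13.4 CPM in the libraries labelled atf4a/b, against 16.3, 17.7 and 16.7 CPM in sec31anju221 (log2 fold changes -0.50 and -0.29, or 1.0 and 0.99 with TMM factors from the expressed genes). For mrpl10, which anchors the stalk that recruits translation factors, they were 10.2, 10.8 and 9 CPM in the atf6 double mutant and 16.3, 15 and 15 CPM in the libraries labelled atf4a/b, against 17.8, 14.8 and 18 CPM in sec31anju221 (log2 fold changes -0.75 and -0.13, or 0.75 and 1.15 with those factors). The libraries labelled atf4a/b overlapped those of sec31anju221 for mrpl10. The single members above 2-fold, named after their values were seen, were mrpl24 in the atf6 double mutant and mrps27 in the libraries labelled atf4a/b. For mrpl24 there were 108 counts against 27 in sec31anju221 (log2 fold change 1.46). For mrps27, a pentatricopeptide repeat protein of the small subunit, there were 160 counts against 61 (log2 fold change 1.1). With a prior count of 10 no member was above 2-fold in the libraries labelled atf4a/b.

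Other gene groups had medians above that of the members in these genotypes, and their own direction mostly depended on the scaling. Nuclear-encoded subunits of oxidative phosphorylation had medians of -1.70 in the atf6 double mutant (70 of 82 more than 2-fold lower) and -1.21 in the libraries labelled atf4a/b (51 lower), and the members stood 0.61 below them in both. With TMM factors from the expressed genes the medians of these subunits were -0.19 and 0.05, so only the first kept its sign. The distance to the cytosolic ribosomal protein genes was 1.19 in the atf6 double mutant and 1.02 to 1.04 in the libraries labelled atf4a/b. Mitochondrially encoded mRNAs had medians of -1.39 (12 of 13 lower) and -1.03 (7 of 13 lower), and positive medians of 0.12 and 0.25 with TMM factors from the expressed genes. The cytosolic ribosomal protein genes turned positive likewise, at 0.39 and 0.48. The distances to the members were nearly the same under each scaling, as they are by construction, and none was tested.

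The partners of the ribosome differed in how far below sec31anju221 they stood, here with TMM factors from all genes tested. All 5 ribosomal subunits with other names were more than 2-fold lower in the atf6 double mutant and 4 in the libraries labelled atf4a/b (medians -1.91 and -1.53). The small subunit protein chchd1 averaged 31.5 CPM in the atf6 double mutant and 34.5 CPM in the libraries labelled atf4a/b, against 373 CPM in sec31anju221. Of 16 translation factors 10 and 12 were lower (medians -1.66 and -1.52), among them slirp, an RNA-binding partner of mitochondrial mRNAs, at 29.3 CPM in the atf6 double mutant and 26.6 CPM in the libraries labelled atf4a/b against 152 CPM in sec31anju221. Assembly factors were lower in 10 and 11 of 22 (medians -0.83 and -0.95), and chaperones and proteases in 7 of 8 in each (medians -1.56 and -1.64). With TMM factors from the expressed genes the medians of the differently named subunits, the translation factors and the chaperones stayed negative (-0.06 to -0.53), while those of the assembly factors turned to 0.63 and 0.27. The synthetases were nearer to the sec31anju221 level, with 7 and 6 of 19 lower and medians of -0.55 and -0.10 that turned to 0.70 and 1.14 in that other scaling. Only 2 of these 19 genes, hars2 and sars2, had a mean of at least 10 CPM, and hars2 was at 14.2 CPM in the atf6 double mutant and 10.8 CPM in the libraries labelled atf4a/b against 68 CPM in sec31anju221. Genes of mitochondrial DNA transcription and biogenesis had 6 of 13 lower in each, with medians of -0.38 and -0.99 (1.11 and 0.27 in the other scaling).

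Tissue markers also differed in these libraries. Exocrine pancreas markers were higher in the atf6 double mutant, 9 of 10 beyond 2-fold, at a summed 816 to 836 CPM against 105 to 107 CPM in sec31anju221, and 45.2 to 51.5 CPM in the libraries labelled atf4a/b. As a share of all counts they took 0.0071% to 0.0081% in the libraries labelled atf4a/b, against 0.0080% to 0.0082% in sec31anju221. Intestine markers summed to 332 to 355 CPM in the atf6 double mutant and 746 to 779 CPM in the libraries labelled atf4a/b, against 8587 to 8651 CPM in sec31anju221, a difference carried by fabp2 and apoa4b.1, while the median of the 8 markers was 0.51 and 0.07. Hepatocyte markers were lower, 8 of 14 in the atf6 double mutant and 4 of 14 in the libraries labelled atf4a/b, with medians of -1.24 and -0.77 that were 0.25 and 0.52 with TMM factors from the expressed genes. They summed to 61246 to 61466 CPM in the atf6 double mutant and 94951 to 98022 CPM in the libraries labelled atf4a/b, against 182832 to 187387 CPM in sec31anju221. The hepatocyte gene fabp10a was present in every genotype, with a lowest mean of 1313 CPM in the xbp1 double mutant. No exocrine pancreas or hepatocyte marker was at 0 in any genotype mean. As a share of all counts, biliary, endothelial, leukocyte, muscle and neural markers were higher in both genotypes than in sec31anju221, and erythrocyte markers were lower. The part of cell composition, and of the number of genes detected, in the lower level of the members was not tested.

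In the srebf1 and srebf2 double mutants the partner lists differed in their medians. Ribosomal subunits with other names had medians of 0.37 in the srebf1 double mutant and 0.64 in the srebf2 double mutant, with none of 5 beyond 2-fold. The synthetases had medians of 0.51 (4 of 19 higher, 2 lower) and 0.16 (5 higher, 4 lower), and the second was -0.24 with library totals. Mitochondrial translation factors had 2 of 16 higher and 3 lower in the srebf1 double mutant (median -0.09) and 5 higher and 4 lower in the srebf2 double mutant (median 0.03). The second median was -0.18 with TMM factors from the expressed genes and -0.41 with library totals, so its sign depends on the scaling. Assembly factors were higher in 8 of 22 and lower in 2 in the srebf2 double mutant (median 0.39, or -0.05 with library totals), and 3 each way in the srebf1 double mutant (median -0.06). An example is malsu1, which joins the large subunit late in its assembly in human cells, at 76.9 CPM in the srebf1 double mutant and 91.3 CPM in the srebf2 double mutant against 42.8 CPM in sec31anju221 (log2 fold changes 0.84 and 1.09). The synthetase hars2 was at 131 CPM in the srebf1 double mutant and 122 CPM in the srebf2 double mutant against 68 CPM in sec31anju221, and sars2 at 31.6 CPM in the srebf1 double mutant and 5.75 CPM in the srebf2 double mutant against 29.9 CPM in sec31anju221. The mitochondrially encoded mRNAs had medians of -0.33 in the srebf1 double mutant (2 of 13 lower) and 0.53 in the srebf2 double mutant (1 higher, 2 lower). The insertase oxa1l, which places newly made proteins in the inner membrane, averaged 25 CPM in the srebf1 double mutant and 37 CPM in the srebf2 double mutant against 13.9 CPM in sec31anju221 (log2 fold changes 0.84 and 1.40).

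The 3 paralogs of the bacterial protein S18 differed from each other. In mammals each ribosome holds the products of all 3 genes at different places, mrps18a in the large and the other two in the small subunit. In sec31anju221 against WT, mrps18c was higher, with 288, 289 and 305 CPM against 143, 139 and 137 CPM (log2 fold change 1.07). The values of mrps18a were 41.6, 44 and 41.2 CPM against 65.5, 65.4 and 63.3 CPM (log2 fold change -0.61). With library totals this became 0.04, so the sign for mrps18a depends on the scaling. Those of mrps18b were 39, 38.9 and 42.1 CPM against 33.9, 35.9 and 32.8 CPM (log2 fold change 0.23). All 3 were lower in the atf6 double mutant, most of all mrps18a with 3.4, 3.21 and 4.1 CPM (log2 fold change -3.52), against -2.92 for mrps18b and -2.44 for mrps18c. How reads shared between such copies were counted was not given in the sources used here, so these values carry that uncertainty.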

How the data were processed

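RNA from dissected, trypsin-dissociated livers was made into libraries with a low-input kit and sequenced as read pairs on an Illumina NovaSeq. Per the submitters' processing notes, the authors used bcl2fastq, FastQC 0.11.9, HISAT2 2.1.0, SAMtools 1.10 and featureCounts 1.6.0 with the GRCz11 genome; the deposited values are raw counts per Ensembl gene for each library. Ensembl release, strand setting and treatment of multi-mapping reads were not given in the sources used here. Gene IDs were paired with symbols through a name table (29201 of 32520 matched).

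Genes with a total of at least 10 scaled counts were kept (30747). Log2 fold changes came from edgeR 4.0.16 (R 4.3.3; TMM, 1 fit over 21 libraries, genotype as the only term, prior count 2). The edgeR fit was tested on simulated data. In these all libraries had the same gene proportions apart from a set of changed genes, so that test does not bear on the choice of scaling. Calls were by a fold change above 2. CPM are TMM-scaled. Alternatives were other scalings, filters, prior counts, call rules, DESeq2 1.42.0, fits on 6 libraries, and leaving out each library number. Named members were those of at least 10 CPM with the 4 largest or 4 smallest fold changes in any comparison, the 10 with the highest mean CPM and the mrps18 paralogs. In the other lists the named genes were mostly those with the 2 largest changes either way. Members and lists were chosen with earlier results of these data known. Gene length was not used, so levels are not compared between genes except in the ranking by CPM, and no sequences are shown.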

Additional observations from a re-analysis of the deposited data

How the results depend on the processing

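With fold changes above 1.5, the members higher and lower numbered 17 and 26 in sec31anju221 against WT, 16 and 11 in srebf1-/-;sec31anju221 and 17 and 20 in srebf2-/-;sec31anju221, with 2 higher in xbp1-/-;sec31anju221 and 3 in atf4a-/-;atf4b-/-;sec31anju221. The shares of all genes tested beyond 1.5-fold were not computed, so these counts show only how the calls move with the threshold. TMM factors from genes of at least 10 CPM gave, higher and lower, 11 and 3 in xbp1-/-;sec31anju221 (median 0.17), 2 and 6 in srebf1-/-;sec31anju221, 4 and 16 in srebf2-/-;sec31anju221, 5 and 27 in atf6-/-;sec31anju221 and 6 and 26 in atf4a-/-;atf4b-/-;sec31anju221. Library totals gave 21 and 4 in sec31anju221 against WT, then 16 and 2 (median 0.37), 2 and 6, 2 and 21, 3 and 28, and 4 and 31 in the same order of double mutants. These 2 scalings shifted the median of all genes by 0.85 to 1.24 in the comparisons of xbp1-/-;sec31anju221, atf6-/-;sec31anju221 and atf4a-/-;atf4b-/-;sec31anju221, by -0.06 to -0.27 in those of srebf1-/-;sec31anju221 and srebf2-/-;sec31anju221 and by 0.07 and 0.46 in sec31anju221 against WT.

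Under the same 2 scalings, in that order, the log2 fold change of 16 and 17 of the 28 named members below 0 turned positive in xbp1-/-;sec31anju221, 7 and 5 of 31 did in atf6-/-;sec31anju221, and 6 and 6 of 31 in atf4a-/-;atf4b-/-;sec31anju221. Of those that had been more than 2-fold lower, these were in xbp1-/-;sec31anju221 mrpl42 (0.24 and 0.44), mrps14 (0.15 and 0.35), mrps18a (0.058 and 0.26) and mrps7 (0.13 and 0.33), and mrps30 (0.18) with library totals. In atf6-/-;sec31anju221 they were mrpl19 (0.28 and 0.22), mrps24 (0.39 and 0.32) and mrps35 (0.27 and 0.20), and with the first also mrpl15 (0.0003) and mrpl4 (0.062). The cause was not tested.

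In srebf2-/-;sec31anju221, 14 members were higher with DESeq2 size factors, with DESeq2 fold changes and in a fit of the 6 libraries compared. In xbp1-/-;sec31anju221, 0 were higher with no filter, a prior count of 10 or an edgeR FDR below 0.001, and 0 to 1 with 1 library number left out. In atf4a-/-;atf4b-/-;sec31anju221, 2 were higher among genes of at least 1 CPM, 0 with a prior count of 10, and 1 to 2 with 1 library number left out. Left out in turn, the library numbers moved no other count of calls by over 1.5 times.

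Library numbers do not pair the samples: over 63 same-numbered pairs the correlation of deviations was -0.087 to 0.069, and 5 of 21 libraries were closest to their own number. With the number as a replicate block, 9 members were higher and 11 lower in sec31anju221 against WT, and no count changed in any comparison.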
